A study of Mus musculus with 36 samples.

Results

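Polycomb Repressor Complex 2 (PRC2) is the enzyme that places K27me3, and the marks carried by the genes of its own subunits were examined here. The 10 genes, chosen by name, were Ezh2 and Ezh1 (the catalytic subunits), Suz12, Eed and Rbbp4 (the core scaffold), Jarid2 and Aebp2 (accessory subunits of the PRC2.2 form), and Mtf2, Phf1 and Phf19 (Polycomb-like accessory subunits of the PRC2.1 form). All 10 were found among the 21728 protein-coding genes of the annotation. Peaks of K4me3, a mark of active promoters, and of K27me3, a mark of Polycomb repression, had been called by ChIP-Seq in the whole pancreas of 12 mice, 3 of each of 4 genotypes. The genotypes were Wildtype (WT), Mist1creERT/+EZH2[delta]SET (EZ), and the groups titled KR and KE, which share Mist1creERT/+ and a further recombinable allele, KE together with Ezh2[delta]SET. All mice, WT included, received tamoxifen by gavage at 2 to 4 months of age and were sampled 22 days later.

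The creERT recombinase was inserted at the Mist1 locus, which is active in acinar cells, so recombination was directed to acinar cells while the tissue sampled was the whole organ. The WT group had no recombined allele, and the study took both wild-type C57BL/6 mice and mice with creERT alone as controls. Both sexes were used. The peak lists hold positions only, with no height or read count, so the depth of each library is unknown and every value below is a length or a presence. Changes in cell composition and changes within a cell cannot be told apart in such tissue. The 9 acinar markers, among them Cpa1, Cel and Ptf1a, carried K4me3 in all 12 mice. Of 5 islet markers, the hormone genes Ins1, Ins2 and Gcg carried it in none, Pdx1 in 12 and Neurod1 in 11.

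PRC2 is assembled around EZH2 or EZH1, whose SET domain transfers methyl groups to lysine 27 of histone H3. SUZ12 and EED are required for that activity, and EED binds existing K27me3 and stimulates the enzyme. EZH2 is usually abundant in dividing cells, whereas EZH1 persists in resting tissue. Accessory subunits steer the complex: the Polycomb-like proteins bind unmethylated CpG-rich DNA, and JARID2 and AEBP2 bind nucleosomes that carry ubiquitylated histone H2A.

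In the conditional Ezh2 allele, recombination between loxP sites removes the stretch from exon 16 to exon 19 and with it the SET domain. In the principal transcript, which has 20 exons, these lie on the minus strand of mm10 at chr6:47531741-47533837, between 61.2 and 63.3 kb downstream of the transcription start site (TSS). Together they hold 344 coding bases, which leaves a remainder of 2 when divided by 3, so that joining exon 15 to exon 20 shifts the reading frame. The 4 exons are shown because the targeted interval carried one of the results below. Capitals mark the 9 bases of codons 688 to 690, which encode the Asn-His-Ser stretch of the SET domain active site.
Ezh2 exon 16, chr6:47533742-47533837, minus strand: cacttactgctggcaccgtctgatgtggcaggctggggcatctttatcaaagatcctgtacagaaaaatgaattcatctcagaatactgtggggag
Ezh2 exon 17, chr6:47532902-47532983, minus strand: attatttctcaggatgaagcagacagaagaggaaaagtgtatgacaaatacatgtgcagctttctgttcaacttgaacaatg
Ezh2 exon 18, chr6:47531985-47532065, minus strand: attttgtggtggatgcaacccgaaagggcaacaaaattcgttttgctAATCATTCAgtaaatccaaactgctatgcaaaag
Ezh2 exon 19, chr6:47531741-47531825, minus strand: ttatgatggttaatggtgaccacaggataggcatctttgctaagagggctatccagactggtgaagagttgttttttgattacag
Exons 16 to 19 touch 115 codons.

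The promoters of the subunit genes were mostly rich in CpG dinucleotides. The RefSeq table (GRCm38.p6) held a promoter for 10 of 10 genes, spanning 250 bases before to 50 bases after the start. The number of CpGs in the 300 bases was 41 at Suz12, 39 at Rbbp4, 38 at Phf19, 31 at Ezh2, 30 at Mtf2, 24 at Phf1, 23 at Ezh1, 23 at Jarid2 and 17 at Eed, against a median of 7 over 32851 promoters. At Aebp2 the nearest RefSeq start was 836 bp from the start used here and had 4 CpGs, and another, 1410 bp away and within the K4me3 domain, had 21. The 250 bases before the start are shown for both catalytic genes and for the genes with the broadest (Jarid2) and one of the narrowest (Phf19) K4me3 domains. Capitals mark CpG.
Ezh2, chr6:47595031-47595280, minus strand: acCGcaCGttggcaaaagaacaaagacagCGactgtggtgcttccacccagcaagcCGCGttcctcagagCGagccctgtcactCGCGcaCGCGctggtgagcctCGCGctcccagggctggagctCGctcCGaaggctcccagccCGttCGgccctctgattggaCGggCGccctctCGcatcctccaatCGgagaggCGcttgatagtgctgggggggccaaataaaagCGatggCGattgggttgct
Ezh1, chr11:101226464-101226713, minus strand: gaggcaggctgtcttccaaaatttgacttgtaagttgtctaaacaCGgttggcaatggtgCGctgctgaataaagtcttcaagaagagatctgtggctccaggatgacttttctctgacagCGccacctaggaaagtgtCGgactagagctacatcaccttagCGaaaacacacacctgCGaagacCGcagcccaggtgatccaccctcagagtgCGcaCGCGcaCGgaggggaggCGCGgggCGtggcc
Jarid2, chr13:44731021-44731270, plus strand: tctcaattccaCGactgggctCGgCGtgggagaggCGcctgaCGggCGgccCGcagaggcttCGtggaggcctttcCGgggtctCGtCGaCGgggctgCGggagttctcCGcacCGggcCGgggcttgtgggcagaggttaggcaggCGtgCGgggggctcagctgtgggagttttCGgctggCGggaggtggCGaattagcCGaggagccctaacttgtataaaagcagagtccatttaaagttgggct
Phf19, chr2:34913977-34914226, minus strand: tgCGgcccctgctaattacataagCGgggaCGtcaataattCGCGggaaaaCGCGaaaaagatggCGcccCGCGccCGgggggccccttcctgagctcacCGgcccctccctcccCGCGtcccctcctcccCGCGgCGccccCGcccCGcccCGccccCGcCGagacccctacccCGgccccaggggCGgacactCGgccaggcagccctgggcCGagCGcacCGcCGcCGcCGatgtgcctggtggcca
An E2F-type motif, spelled TTTCCCGC, TTTCGCGC, TTTGCCGC or TTTGGCGC and searched on both strands, occurred in 2.26% of all promoters and in those of Ezh2 (TTTGGCGC, after the start), Suz12 (TTTCCCGC) and Phf19 (TTTCCCGC on the other strand). E2F factors drive genes of the cell cycle. A match is a stretch of letters and was not tested as a binding site.

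All 10 subunit genes carried a K4me3 peak within 3 kb of the principal TSS in all 12 mice. A K27me3 peak lay there at 1 of 10 genes, in 1 mouse (1 of 120 pairs of a gene and a mouse). Among all protein-coding genes, 54.9% had K4me3 at the TSS in all 12 mice and 33.4% had K27me3 there in at least 1 mouse. Mouse by mouse, 7.66% to 20.9% of autosomal genes had K27me3 within 3 kb of the TSS. The length covered by K4me3 in the window, which spans 6001 bp, was used as the measure of each promoter domain. Over the subunit genes the median of these lengths was 2983 bp, while the median over all genes with a peak lay between 2116 and 2296 bp in the 12 mice. The genes differed far more from each other than any of them did between mice.

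**Figure D1:**
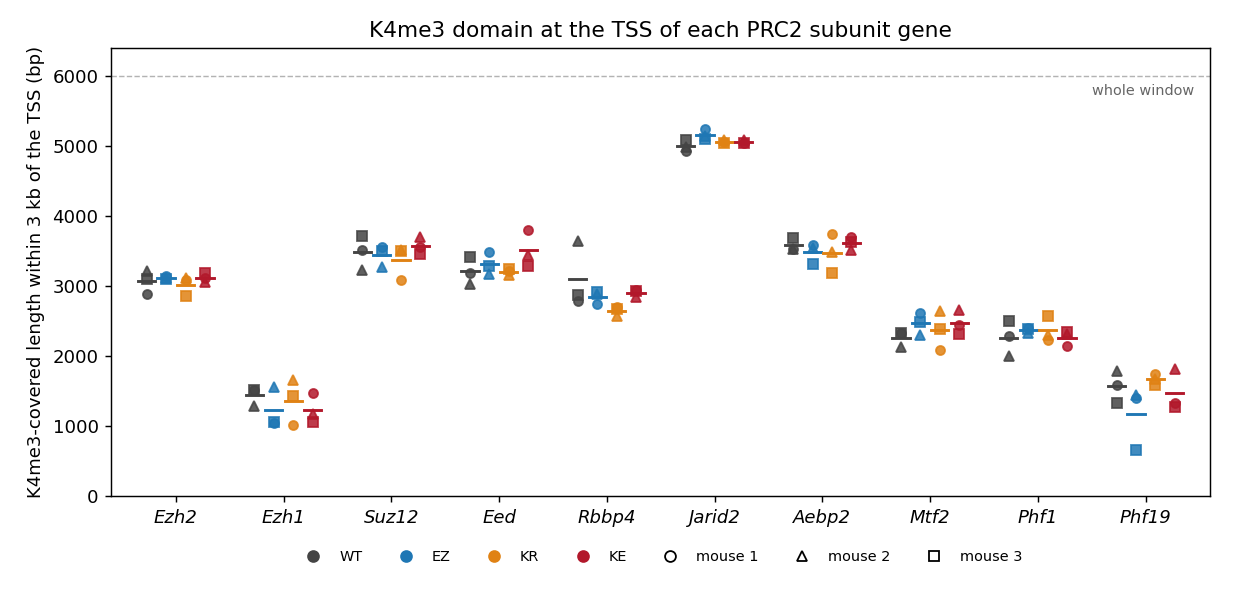
K4me3-covered length (bp) within 3 kb of the TSS of each PRC2 subunit gene. Each point is 1 mouse, coloured by genotype with its replicate number as the shape, and bars are means of 3 mice. Jarid2 lies at or above 4928 bp in every mouse, Ezh1 and Phf19 lie at or below 1821 bp, and the genotypes of each gene largely overlap.

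Ezh2, one of the catalytic genes, had a domain of nearly constant length. Its K4me3-covered length was 2892, 3221 and 3098 bp in WT, 3148, 3109 and 3096 bp in EZ, 3081, 3120 and 2861 bp in KR, and 3112, 3055 and 3194 bp in KE. The 4 genotypes overlapped, and the SD over 12 mice was 107 bp on a mean of 3082 bp. Within each mouse the domain was longer than at 71.7% to 84.2% of the promoters with a peak. With the 12 mice joined, the domain ran from −1.25 to 2.05 kb relative to the TSS.

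Ezh1, the other catalytic gene, had the shortest median domain of the 10 genes. Its covered length was 1519, 1296 and 1523 bp in WT, 1052, 1567 and 1064 bp in EZ, 1013, 1663 and 1426 bp in KR, and 1469, 1168 and 1062 bp in KE. The genotypes overlapped, with a spread among mice (coefficient of variation 17.9%) larger than that of Ezh2 (3.46%). Every mouse had a longer domain at Ezh2 than at Ezh1.

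The core genes resembled Ezh2. Suz12, whose product holds the complex together, ranged from 3081 to 3710 bp with a median of 3510 bp. Eed, which encodes the K27me3 reader, ranged from 3027 to 3804 bp with a median of 3266 bp. Rbbp4, which encodes a histone-binding subunit shared with other chromatin complexes, measured 2792, 3646 and 2876 bp in WT, 2738, 2884 and 2912 bp in EZ, 2698, 2574 and 2672 bp in KR, and 2944, 2849 and 2933 bp in KE. The highest value was that of WT replicate 2, a library that stood apart, and the 3 KR mice were the lowest of the 12. The Rbbp4 domain also holds the TSS of Zbtb8os, a neighbouring protein-coding gene, so its length belongs to both promoters. The Eed domain holds the TSS of the noncoding transcript E230029C05Rik, and the Phf1 domain that of AC144621.3, annotated as a sense-overlapping transcript.

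Of the PRC2.2 accessory genes, Jarid2 had the broadest domain and Aebp2 a domain like those of the core genes. Jarid2, whose product recruits PRC2 and binds its EED subunit, measured 4928, 4990 and 5086 bp in WT, 5244, 5135 and 5101 bp in EZ, 5059, 5079 and 5045 bp in KR, and 5041, 5088 and 5042 bp in KE. This was the longest domain of the 10 genes in every mouse, longer than at 98.1% to 99.1% of the promoters with a peak, and its coefficient of variation was only 1.52%. Aebp2, a zinc finger subunit, ranged from 3184 to 3745 bp with a median of 3539 bp.

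The Polycomb-like genes had domains of middling or short length. Mtf2 ranged from 2085 to 2652 bp (median 2362 bp) and Phf1 from 2004 to 2570 bp (median 2324.5 bp), which placed both near the middle of all promoters with a peak. Phf19 was the most variable gene, at 1585, 1795 and 1334 bp in WT, 1399, 1451 and 664 bp in EZ, 1740, 1670 and 1593 bp in KR, and 1333, 1821 and 1276 bp in KE. The value of EZ replicate 3 was the lowest of all 120, and the other EZ values lay within the range of WT.

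Ordered by median, Jarid2 was followed by Aebp2, Suz12, Eed, Ezh2, Rbbp4, Mtf2, Phf1, Phf19 and Ezh1. Jarid2 exceeded Aebp2 in 12 of 12 mice and Phf1 exceeded Phf19 in 12 of 12. Eed exceeded Ezh2, Ezh2 exceeded Rbbp4 and Rbbp4 exceeded Mtf2 in 11 of 12 mice each. Suz12 was longer than Eed in 10 of 12. Aebp2 and Suz12 (7 of 12), Mtf2 and Phf1 (7 of 12), and Phf19 and Ezh1 (8 of 12) were neighbours whose order changed between mice.

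The first comparison was EZ against WT, which differ in the labels by EZH2[delta]SET and also by Mist1creERT/+. The effects of these alleles on the subunit promoters cannot be told apart here. In EZ against WT, 1 of 10 genes had K4me3 lengths that did not overlap between the groups, while 10.7% of the 13500 genes tested did the same. That gene was Jarid2, at 5160 bp ± 74.7 (SD, n = 3) in EZ and 5001 bp ± 79.6 (SD, n = 3) in WT, a difference of 159 bp (exact permutation test, two-sided, p = 0.1, which is the smallest p that 3 mice against 3 allow, and 0.889 after Benjamini-Hochberg adjustment over 40 tests, 10 genes in 4 comparisons). In limma across all genes, no subunit gene passed an adjusted p of 0.05, and 0.0519% of genes did. Jarid2 had an adjusted p of 0.775 by limma. Its separation was lost in a window of 5 kb and when lengths were replaced by percentiles within the mouse. A window of 1 kb could not show it, since K4me3 covered the whole 2001 bp in every mouse. In the 1 kb window Suz12 (shorter in EZ) and Phf1 (longer in EZ) were separated instead, and by percentiles Suz12 and Aebp2, both lower in EZ. Phf19, at 1171 bp ± 440 (SD, n = 3) against 1571 bp ± 231 (SD, n = 3), had the largest difference, −400 bp with a 95% interval of −886 to 85.6 bp. Without EZ replicate 3 it was −146 bp, smaller than the difference of −294 bp at Rbbp4 among the same mice. That of Rbbp4 was −260 bp with all mice and 10.7 bp without WT replicate 2. The difference at Ezh2 itself was 47.3 bp, with an interval of −199 to 294 bp, and it was −41.8 bp without WT replicate 1 and 123 bp without WT replicate 2. The median difference of the 10 genes was 1.5 bp, against 75.3 bp over all genes, of which 67.5% were longer in EZ. Taken within replicate numbers, which deviated together in EZ and WT, Jarid2, Mtf2 and Phf19 moved in 1 direction in 3 of 3 pairs, a pattern seen in 25.3% of all genes. Mtf2 was longer in EZ by 287, 177 and 157 bp, and Phf19 differed by −186, −344 and −670 bp.

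The second comparison was KE against KR, the groups that share the further allele and differ in the labels by Ezh2[delta]SET. The 3 KR mice had 10 to 35 K27me3 peaks on the X chromosome and the 3 KE mice 5862 to 7272. K27me3 is known to cover the inactive X chromosome of females, and the labels do not give the sex of the mice, so that genotype and what split the X chromosome cannot be told apart here. In this comparison, 2 of 10 genes did not overlap, against 8.20% of all genes, and none passed limma, against 0.0667%. Eed was 305 bp longer in KE (interval −35.2 to 645 bp) and Rbbp4 was 261 bp longer (interval −161 to 683 bp). Eed measured 3804, 3442 and 3290 bp in KE and 3216, 3163 and 3242 bp in KR, so that the groups were separated by 48 bp, and the difference was 159 bp without KE replicate 1. Neither gene was separated by percentiles within the mouse. A window of 1 kb could not separate them, since K4me3 covered all of it (2001 bp) at both genes in every mouse. Each had an exact permutation p of 0.1, and an adjusted p of 1 by limma. The same genes moved in 1 direction in 3 of 3 replicate numbers, as did 24.3% of all genes. The median difference was 100 bp for the subunit genes and 26.7 bp for all genes. Without WT replicate 2, which shares the estimate of spread in limma, the interval of Rbbp4 narrowed to 77.1 to 444 bp with an adjusted p of 0.671.

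**Figure D2:**
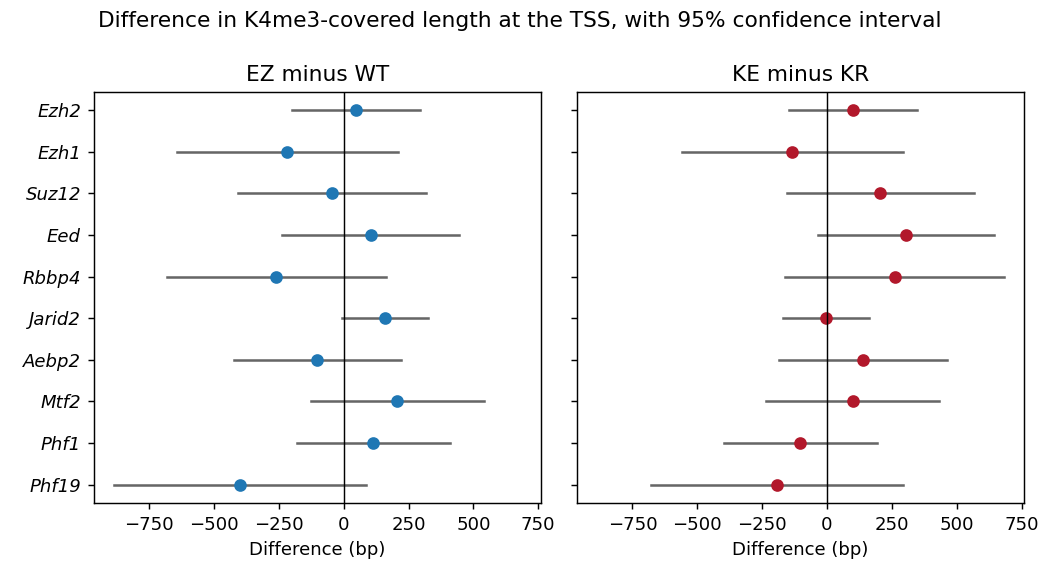
Difference in K4me3-covered length (bp) within 3 kb of the TSS for each subunit gene in EZ against WT and KE against KR, from limma with 3 mice per genotype. Points are differences and lines their 95% confidence intervals before adjustment. All lines cross 0, and that of Jarid2 in EZ minus WT, from −6.83 to 324 bp, comes nearest to lying on 1 side.

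The targeted interval of Ezh2 held the one K4me3 region in the 10 genes that was found in more than 1 mouse of a single genotype and in no other. No mouse of WT, EZ or KR had a K4me3 peak in the interval from exon 16 to exon 19. KE replicate 2 had a peak of 653 bp at chr6:47533060-47533712, and KE replicate 3 had a peak of 630 bp at chr6:47533202-47533831. KE replicate 1 had none, and its nearest K4me3 peak was the promoter, 59.2 kb away. The peak of replicate 2 lay in the intron between exons 16 and 17, and that of replicate 3 in the same intron and over 90 bases of exon 16, printed above. The tissue was the whole pancreas, while recombination was directed to acinar cells. Whether the reads came from cells that kept the interval was not tested. The share of such cells cannot be told from peak positions. Both peaks lay at least 944 bp from any annotated start of Ezh2. The interval was examined because the alleles target it, whereas the comparison with other regions was chosen after these peaks were seen. Of 33840 K4me3 regions in the 12 mice, 52 (0.154%) were found in 2 or 3 KE mice and in no other mouse. The corresponding shares were 0.281% for WT, 0.644% for EZ and 0.405% for KR. Both peaks were narrow, and none was left when peaks were required to span 1 kb. K27me3 was not found in the interval in any mouse, and the nearest K27me3 domain was 130 to 443 kb away.

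**Figure D3:**
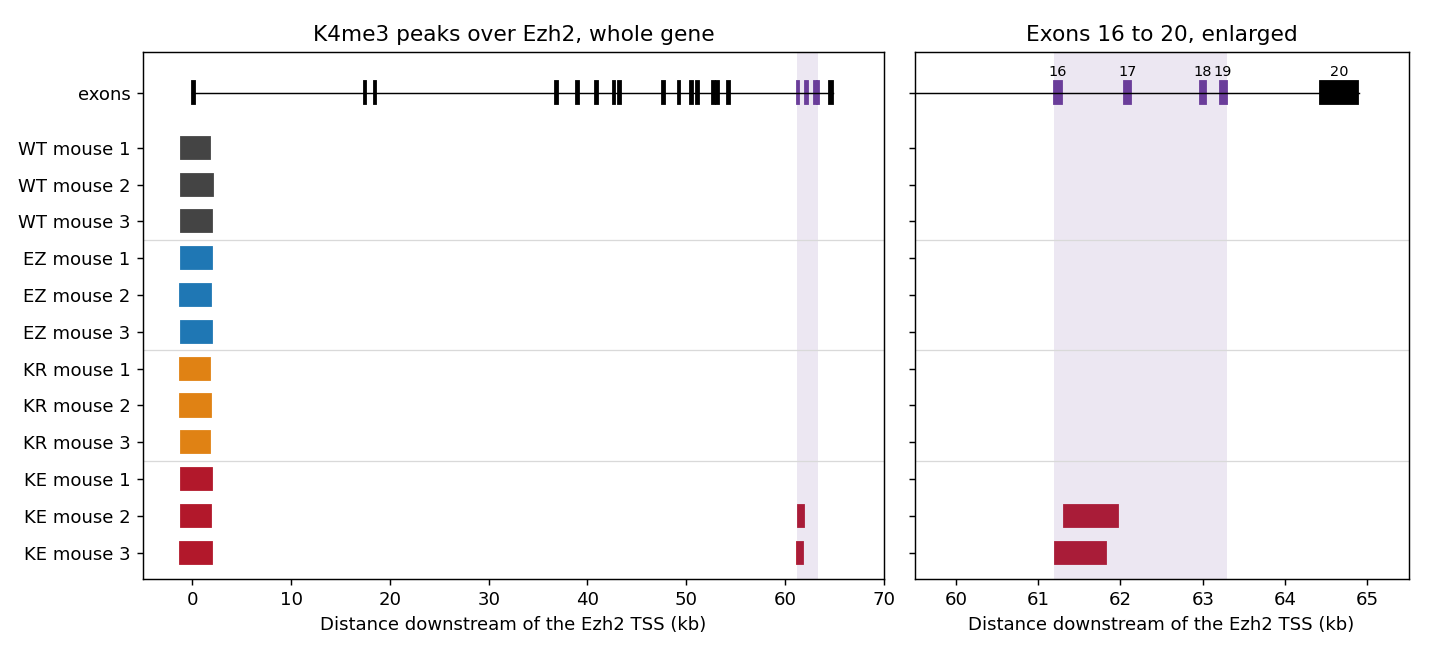
K4me3 peaks over Ezh2 in each of the 12 mice, by distance downstream of the TSS (kb), for the whole gene on the left and for exons 16 to 20 on the right. Bars are peaks coloured by genotype, exons are drawn at the top (widened to be visible on the left), and the shaded interval holds exons 16 to 19. The promoter peak is present in 12 of 12 mice and the internal peak in KE replicates 2 and 3.

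Other K4me3 regions lay inside the subunit genes without following genotype. Phf19 had an internal promoter 7.92 to 9.86 kb downstream of its principal TSS, marked in 12 of 12 mice. Jarid2 had an internal promoter at 108.3 to 109.8 kb, marked in 11 mice, and further regions at 5.63 to 7.35 kb and 112.2 to 113.0 kb, each marked in 10. WT replicate 2 lacked all of these Jarid2 regions, and KR replicate 1 lacked the pair found in 10 mice. A Jarid2 region at 68.1 to 69.8 kb was found only in WT replicate 2, KR replicate 1 and KE replicate 1. Leukocyte markers carried K4me3 in these 3 libraries and in 1 that lacked the region, EZ replicate 2. They numbered 3 of 5 in WT replicate 2 and in KR replicate 1, 1 of 5 in EZ replicate 2 and in KE replicate 1, and 0 of 5 in the other 8 mice, with Lyz2 and Csf1r at 0 throughout. Their part in the Jarid2 regions was not tested. Aebp2 had a region at 6.10 to 6.83 kb in 6 mice, the 3 EZ mice and 1 of each other genotype. Mtf2 had a region over its 3' end, 42.7 to 44.6 kb downstream, in 11 mice, with WT replicate 2 the exception. A further 4 regions, each of 501 bp, were found in 1 mouse each: in Ezh1 (KE replicate 3), Mtf2 (KR replicate 2) and Jarid2 (WT replicate 2 and KE replicate 1). A region past the 3' end of Phf1 in 12 mice was the promoter of Cuta, a separate gene.

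K27me3, the product of the complex, was nearly absent from the subunit genes. The gene bodies held a K27me3 peak in 0 of 120 pairs of a gene and a mouse. No share over all genes was taken for gene bodies, so this count does not set the subunit genes apart. At the TSS the single pair was Ezh1 in WT replicate 2, where 340 bp at the edge of the window were covered by a domain that began 2.66 kb upstream. Without that library the count was 0, while 25.7% of all genes still had K27me3 at the TSS in at least 1 of the other 11 mice. WT replicate 2 had the fewest K4me3 peaks (17400, against 21815 to 26081) and the fewest K27me3 peaks (21420, against 22415 to 31274), and 11.7% of its autosomal K27me3 peaks overlapped a K4me3 peak, against 0.693% to 4.39% in the others.

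Known PRC2 targets showed that K27me3 could be called at promoters in these libraries. The 12 targets taken for this purpose, among them Hoxd10, Hoxd13, Barhl2 and Foxd3, are developmental regulators that are silent in most adult tissues. This list was chosen with earlier results of these data known, so its counts are not an independent test. All 12 had K27me3 at the TSS in WT replicates 2 and 3, in EZ replicates 1 and 3, in KR replicates 1 and 3 and in the 3 KE mice, 11 in EZ replicate 2 and KR replicate 2, and 8 in WT replicate 1. The median covered length over the targets was 6001 bp, the whole window, in 11 mice and 1487 bp in WT replicate 1. Tbx15 was the 1 target of the 12 with K4me3 in all mice, against 10 of 10 subunit genes. In the 6 EZ and KE mice, whose tissue also holds cells other than acinar cells, 11 or 12 of the 12 targets had K27me3.

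**Figure D4:**
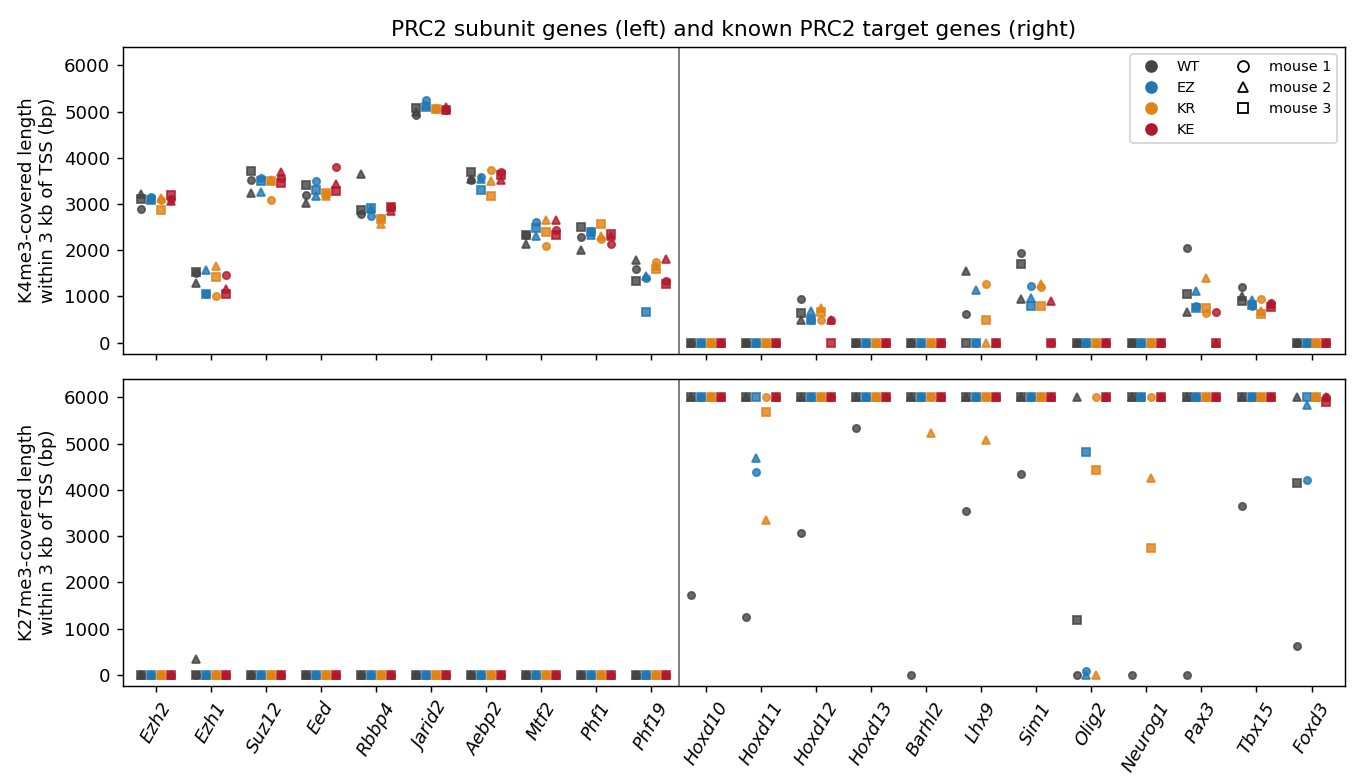
Length covered by K4me3 (top, bp) and K27me3 (bottom, bp) within 3 kb of the TSS for the 10 subunit genes on the left and 12 known PRC2 targets on the right. Each point is 1 mouse, coloured by genotype with its replicate number as the shape. K27me3 is at 0 for the subunit genes except for Ezh1 in 1 WT mouse (340 bp), and at or near 6001 bp for most targets.

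In the wider window of the study, from 100 kb upstream to 3 kb downstream of the TSS, K27me3 was found in 22 of 120 pairs and at 5 of 10 genes in at least 1 mouse, where 66.5% of all genes had it. Phf1 was the one gene with such a domain in 12 of 12 mice. The domain lay over Nkx2-5, a cardiac regulator, and K27me3 covered 8213, 41644 and 28338 bp of the window in WT, 31569, 22862 and 35286 bp in EZ, 35357, 27220 and 33853 bp in KR, and 32544, 29622 and 24954 bp in KE. Its nearest edge stood 63.2 to 83.2 kb from the Phf1 TSS outside WT replicate 2, where a separate peak, counted in the 41644 bp, came to 27.4 kb. The lowest and the highest values were both WT, and the other genotypes fell between them. Phf19 had K27me3 near Hc, a complement gene, in WT replicate 2, EZ replicate 3, KR replicates 2 and 3 and KE replicates 2 and 3. Rbbp4 had 993 and 269 bp at the far end of its window in WT replicate 2 and KR replicate 1. Suz12 (10149 bp) and Ezh1 (32214 bp) had K27me3 in WT replicate 2 alone.

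The K27me3 lengths in this window could be compared only where a mouse had some. In 12 of 20 comparisons, 10 genes in EZ against WT and in KE against KR, all 6 mice were at 0 bp, so that no separation was possible. In the other 8, Ezh1, Suz12, Rbbp4, Phf1 and Phf19 in EZ against WT and Rbbp4, Phf1 and Phf19 in KE against KR, the genotypes overlapped. Among all genes, those at 0 bp included, 3.53% were separated in EZ against WT and 9.52% in KE against KR. The subunit genes are autosomal, and over autosomal genes alone the shares were 3.68% and 5.87%. Of the 8 exact permutation tests, two-sided, the smallest p was 0.4, for Phf1 in KE against KR (29040 bp ± 3828 against 32143 bp ± 4330, SD, n = 3).

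The distance from each TSS to the nearest K27me3 domain varied by gene. Medians over 12 mice were 64.8 kb at Phf1, 76.8 kb at Phf19, 228 kb at Aebp2, 231 kb at Mtf2, 345 kb at Eed, 476 kb at Ezh2, 609 kb at Rbbp4, 673 kb at Jarid2, 898 kb at Suz12 and 933 kb at Ezh1. WT replicate 2 had the nearest domain of the 12 mice at 9 of 10 genes, Jarid2 being the exception. In every mouse the median distance over the subunit genes exceeded that over the 20780 autosomal genes, for example 690 against 250.2 kb in WT replicate 1 and 75.3 against 49.8 kb in WT replicate 2. The nearest domains stood at similar distances from Suz12 in the other 11 mice, 892 to 905 kb, and from Mtf2, 222 to 340 kb.

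**Figure D5:**
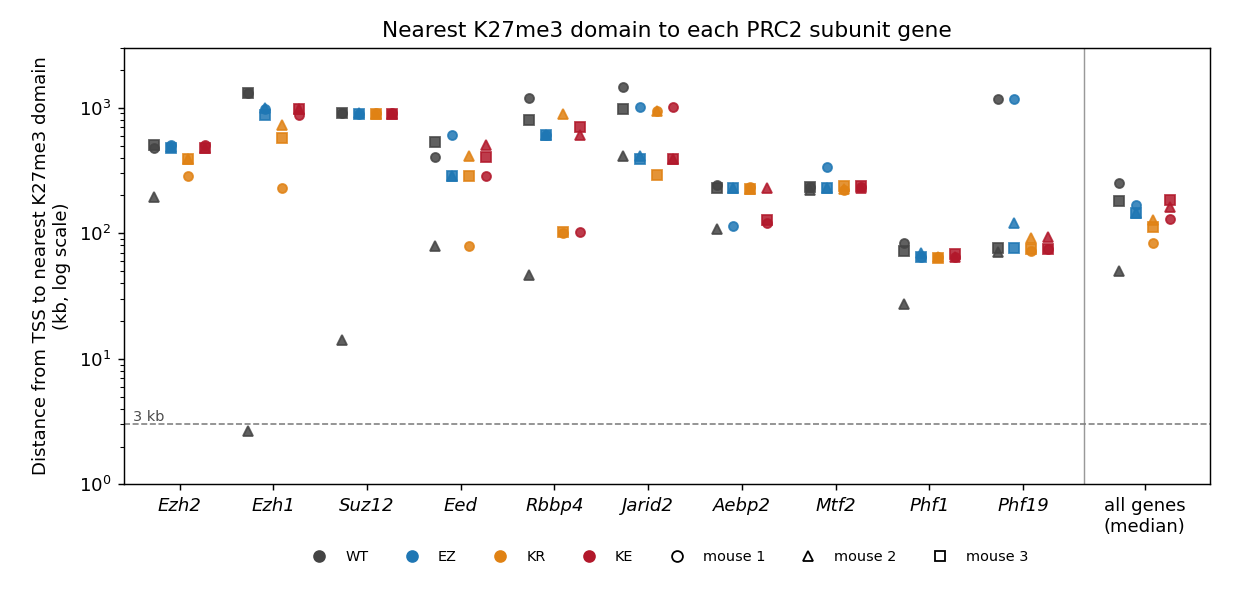
Distance (kb, log scale) from the TSS of each subunit gene to the nearest K27me3 domain in each of 12 mice, with the median over all autosomal genes of the same mouse on the right. Colours are genotypes and shapes replicate numbers. WT replicate 2 (grey triangles) is the nearest of the 12 mice at 9 of 10 genes, and Ezh1 in that mouse, at 2.66 kb, is the only point within 3 kb.

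Most other genes of the pathway also carried K4me3, and more of them carried K27me3. Of 7 further genes, 6 had K4me3 at the TSS in all 12 mice: Rbbp7 (the paralog of Rbbp4), Epop, Lcor and Lcorl (accessory subunits), and Kdm6a and Kdm6b (K27 demethylases). AU022751, the mouse gene of the PRC2 inhibitor EZHIP, had K4me3 in 0 of 12 mice and K27me3 at its TSS in 7. In all, 4 of the 7 had K27me3 at the TSS in at least 1 mouse, with Rbbp7 in 4 mice and Epop and Kdm6a in 1 each, against 1 of 10 subunit genes. Without WT replicate 2 the counts were 2 of 7 and 0 of 10. AU022751, Rbbp7 and Kdm6a lie on the X chromosome, and each had K27me3 in the wide window in 8 mice. The 4 mice without it, EZ replicate 2 and the 3 KR mice, had 10 to 35 K27me3 peaks on the X chromosome, against 5637 to 7367 in the other 8. None of the 10 subunit genes is on the X chromosome. All 19 genes of Polycomb Repressor Complex 1, which binds K27me3 and ubiquitylates histone H2A, had K4me3 at the TSS in 12 of 12 mice, and 3 of them had K27me3 there in at least 1 mouse: Cbx8 in 4 mice, Pcgf1 in 2 and Cbx2 in 1. The median K4me3-covered length was 2307.5 bp for these 19 genes and 3371.5 bp for the 7 further PRC2 genes.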

How the data were processed

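ChIP-Seq for K4me3 and K27me3 was analyzed in 12 mice, 3 per genotype, from 24 peak lists; the inputs have no list. Per the methods, the authors used bowtie2 for alignment to mm10 and HOMER in histone mode for peaks, mouse by mouse, with input as background. The deposited columns used are start and end positions, and the deposited score is 1 for every peak. Depth is unknown, and the lengths depend on the peak caller.

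Covered length and presence (1 bp) were computed within 3 kb of the principal TSS (GENCODE vM21), from 100 kb upstream to 3 kb downstream, and over the gene body. Genotypes were compared by two-sided exact permutation tests and by limma 3.58.1 (R 4.3.3; trend, Benjamini-Hochberg) over 13500 genes with a peak in at least 3 of 12 mice. The code was tested on simulated data. Python 3.11.15, numpy 2.4.6, scipy 1.17.1 and pandas 2.3.3 were used. The subunit genes and the lists were chosen with earlier results of these data known, and all 10 genes are named. Replicates are labelled biological.

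Deviations of same-numbered mice correlated at 0.178, 0.256 and 0.100 for EZ and WT and at 0.513, 0.262 and 0.286 for KE and KR, all over 0.1. Between KR or KE and WT they ran from −0.655 to 0.446, in both directions. The pairing is a hint from the data, since the labels give no shared litter or day. The alternatives were other windows, widths, TSSs, equal numbers of the widest peaks, percentiles, no filter, each mouse left out, and the replicate block. Peaks on the Y chromosome and unplaced sequence, and the RNA-Seq of the study, were not used here. One allele of the KR and KE mice, and the comparisons that need it, are not reported here.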

Additional observations from a re-analysis of the deposited data

How the results depend on the processing

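No subunit gene passed limma in any of 26 alternative fits, the replicate block included (0 of 10 in each comparison), and 194 of 200 recomputed differences stayed within 1 SD of the value reported, while 178 kept their sign, 8 became 0 and 14 changed sign. Settings that cannot move a difference (no filter, the block) are not counted in the 200. Many of the 200 could hardly move either, so these counts are weak support. Peaks of at least 1 kb and equal numbers of the widest peaks changed only Phf19 in EZ against WT, to −621 bp. Leaving out 1 mouse of 3 can shift a group mean by only part of its SD. Counts of genes that did not overlap between groups, which are small, moved. With a window of 1 kb they were 2 in EZ against WT (Suz12 and Phf1; 7.81% of all genes) and 0 in KE against KR (6.32%). There Ezh2, Eed, Rbbp4 and Jarid2 were covered in full in 12 mice and could not be separated. A window of 5 kb gave 0 in EZ against WT (11.3% of all genes). Percentiles within a mouse gave 2 in EZ against WT (Suz12 and Aebp2; 11.1%) and 0 in KE against KR (9.20%). Jarid2 was lost in the 5 kb window and by percentiles, and Eed and Rbbp4 by percentiles. With each mouse left out in turn, which makes separation easier, they ranged from 1 to 3 in EZ against WT (16.4% to 26.7% of all genes) and 2 to 4 in KE against KR (13.7% to 24.3%), and for K27me3 in the wide window from 0 to 1 in KE against KR (11.3% to 14.5%). The replicate block, counting the same sign in 3 of 3 pairs, gave 3 in EZ against WT and changed no other count.

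Requiring at least 50% of the window to be covered left 4 of 10 genes with K4me3 in 12 mice and 0 pairs with K27me3, at the TSS or in the wide window. No share over all genes was taken under this rule, so these counts are not a trait of the subunit genes. The K27me3 pair at the TSS was also lost (0) with peaks of at least 10 kb, and the count ranged from 0 to 1 with each mouse left out. The K4me3 peaks in the targeted Ezh2 interval (2 mice) numbered 0 with peaks of at least 1 kb and 0 with equal numbers of the widest peaks, settings chosen after seeing the data, and 1 to 2 with each mouse left out. The cause of the moves was not tested, except that both Ezh2 peaks are shorter than 1 kb and that full coverage of the 1 kb window sets differences there to 0. Peak positions without heights cannot show a change in enrichment inside a domain of constant length.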
